A study of Mus musculus with 15 samples.

Results

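Chemokine ligand RNA was examined in the peripheral blood of tongue tumor-bearing mice that received αCTLA-4 and were assigned to an early or a late neck dissection (ND). The 8 ligand genes described here are Ccl3, Ccl4, Ccl5, Ccl6, Ccl9, Ccl25, Cxcl2 and Ccl19, taken by gene symbol from the 55416 genes that were counted. The 15 libraries came from the whole blood of C57BL/6 mice, and the labels do not state that each is a separate animal. The 5 early ND and the 5 late ND libraries came from mice with 4MOSC1 tumors, an oral squamous carcinoma line, grown in the tongue for 10 days. These mice received 2 doses of αCTLA-4. The mice of the 5 untreated libraries received neither antibody nor surgery. Their records carry the same tumor protocol, but whether they bore tumors is not clear from the sources used here. The study's methods describe female recipient mice of a few weeks of age. The study's text and legend differ on whether blood was drawn before or after the late operation, so "late ND" names the group and not a completed surgery. No other group received αCTLA-4, so in comparisons with untreated blood the antibody, any operation and any difference in tumor cannot be told apart. The comparison of late with early ND asks how the timing of lymphatic ablation after checkpoint inhibition is reflected in the peripheral immune system. If blood was drawn before the late operation, it sets mice not yet operated beside operated mice. The operation itself and its timing then cannot be told apart.

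Chemokines are small secreted proteins that guide leukocytes along concentration gradients by engaging G protein-coupled receptors. Inflammatory ligands such as CCL3, CCL4, CCL5 and CXCL2 are made by activated myeloid cells, T cells and NK cells and recruit effector leukocytes. CCL6 and CCL9 are rodent CC chemokines made by myeloid cells that act through CCR1. CCL19 and CCL25 are homeostatic ligands, made by lymphoid stroma and by thymic and intestinal epithelium, which direct cells that bear CCR7 and CCR9. Blood therefore carries RNA for a ligand mainly where circulating leukocytes or platelets make it.

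All positions refer to the mouse assembly GRCm39. Ccl5 (ENSMUSG00000035042, chr11:83416602-83425942, minus strand), Ccl9 (ENSMUSG00000019122, chr11:83463745-83473161, minus strand), Ccl6 (ENSMUSG00000018927, chr11:83478708-83483913, minus strand), Ccl3 (ENSMUSG00000000982, chr11:83538670-83540191, minus strand) and Ccl4 (ENSMUSG00000018930, chr11:83553383-83555509, plus strand) lie in a single CC chemokine cluster of 138.9 kb. Cxcl2 lies in the CXC cluster (ENSMUSG00000058427, chr5:91051730-91053797, plus strand). Ccl25 (ENSMUSG00000023235, chr8:4374661-4540760, plus strand) and Ccl19 (ENSMUSG00000071005, chr4:42754525-42756577, minus strand) stand apart from both. All 8 genes are annotated as protein-coding, and counts were summed over their exons.

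The 250 bases upstream of the start of the canonical transcript are shown for the 4 ligands whose levels the comparisons below turn on, so that the control regions of genes that were measured side by side can be read together. For Ccl5 and Ccl9 this start lies inside the gene span given above, which covers longer transcripts. The windows were read from GRCm39 as chr11 or chr5 intervals and written 5′ to 3′ on the strand of the gene: Ccl6 at chr11:83483914-83484163 (minus), Ccl9 at chr11:83469468-83469717 (minus), Ccl5 at chr11:83421346-83421595 (minus) and Cxcl2 at chr5:91051480-91051729 (plus). Capitals mark matches to 5 short motifs: TATAAA on the gene's own strand, and GGANTTTCC (a κB-type site), TGANTCA (AP-1), TTNNGCAA (C/EBP) and GAGGAAG (PU.1) on either strand, with N for any base.
Ccl6: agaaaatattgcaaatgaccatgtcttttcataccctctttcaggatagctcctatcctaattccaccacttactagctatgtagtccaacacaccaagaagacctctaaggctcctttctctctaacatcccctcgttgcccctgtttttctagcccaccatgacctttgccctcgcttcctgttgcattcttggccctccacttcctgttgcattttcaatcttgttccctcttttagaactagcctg
Ccl9: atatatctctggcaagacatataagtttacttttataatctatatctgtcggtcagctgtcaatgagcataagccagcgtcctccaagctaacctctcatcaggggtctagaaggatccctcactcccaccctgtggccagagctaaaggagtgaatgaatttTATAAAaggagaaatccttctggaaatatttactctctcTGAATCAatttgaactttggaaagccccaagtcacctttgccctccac
Ccl5: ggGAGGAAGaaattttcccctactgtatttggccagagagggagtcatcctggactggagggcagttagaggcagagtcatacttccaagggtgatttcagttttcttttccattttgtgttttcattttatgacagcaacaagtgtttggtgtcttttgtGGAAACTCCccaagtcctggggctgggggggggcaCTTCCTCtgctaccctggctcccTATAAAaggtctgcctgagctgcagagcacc
Cxcl2: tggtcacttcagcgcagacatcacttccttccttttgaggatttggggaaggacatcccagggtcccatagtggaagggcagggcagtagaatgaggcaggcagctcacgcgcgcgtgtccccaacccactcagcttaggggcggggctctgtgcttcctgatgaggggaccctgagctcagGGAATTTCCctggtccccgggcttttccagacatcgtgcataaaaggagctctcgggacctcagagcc
Cxcl2 held the κB-type letters GGAATTTCC from 68 to 60 bases before its start, and Ccl5 held GGAAACTCC, the same motif on the other strand, from 89 to 81 bases before its start. Windows of this length upstream of 21627 protein-coding genes held that motif in 1.19% of cases. The Ccl9 window held TATAAA from 87 to 82 bases and the AP-1 letters TGAATCA from 48 to 42 bases before the start, against 8.06% and 6.19% of all windows. Ccl5 also held TATAAA from 31 to 26 bases before its start and 2 PU.1 matches, a motif present in 10.3% of windows. C/EBP letters, found in 9.37% of all windows, were in none of these 4, and the Ccl6 window held none of the 5 motifs. Such matches describe letters and do not show that a factor binds there.

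Libraries held 5862888 to 10796099 counted read pairs in untreated mice, 5527108 to 7182346 in early ND and 7849602 to 13924361 in late ND. Hemoglobin genes took 31.6% to 61.7%, 38.3% to 64.1% and 14.9% to 29.3% of those counts in the same order. Levels are therefore given as CPM, the counts of a gene relative to library size, scaled by the trimmed mean of M-values (TMM), on which 1 CPM stood for 2.57 to 14.3 counts in untreated, 2.91 to 7.93 in early ND and 10.9 to 23.5 in late ND libraries. Untreated 2, late 2 and late 3 stood apart in 18S ribosomal RNA, with 766, 313 and 521 CPM on library totals, without TMM scaling. The other libraries had 13402 to 105889 CPM on that scale. Values without the 3 libraries poor in 18S are given where they change a result. Without these 3 libraries, edgeR called 4 genes in late over early ND and 0 in late ND over untreated, in place of 663 and 406, so none of the calls given below for late ND over untreated was made without them. Scaled to library totals instead of TMM, the log2 fold changes of the genes tested had a median of 0.86 in late over early ND and 0.91 in late ND over untreated, so every direction below is relative to the bulk of transcripts. The skin and sebaceous gland markers summed to between 42.7 and 1061 CPM across the libraries. In whole blood, more cells of a type and more RNA per cell cannot be told apart.

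Ccl6 was the most abundant of the 8 transcripts. Per kilobase of canonical transcript its mean level over the 15 libraries was 208 CPM per kb (SD 75.1), followed by Ccl5 at 52.1 (SD 16.2), Ccl9 at 16.5 (SD 6.00) and Ccl25 at 5.20 (SD 1.37). Each of these 4 exceeded the next in all 15 libraries. Ccl4 at 2.61 (SD 1.36) and Ccl3 at 2.41 (SD 1.20) CPM per kb could not be ordered beyond their spread, with Ccl4 the higher of the pair in 6 of 15 libraries. Cxcl2 averaged 0.818 CPM per kb (SD 1.16) and was below Ccl3 in 12 of 15 libraries. Ccl19 had 1 count in 1 library. The place of Ccl25 depended on the transcript length taken: its annotated exons cover 12537 bases against 902 in the canonical transcript, and over all exons its level fell to 0.374 CPM per kb, below Cxcl2 at 0.439.

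**Figure D1:**
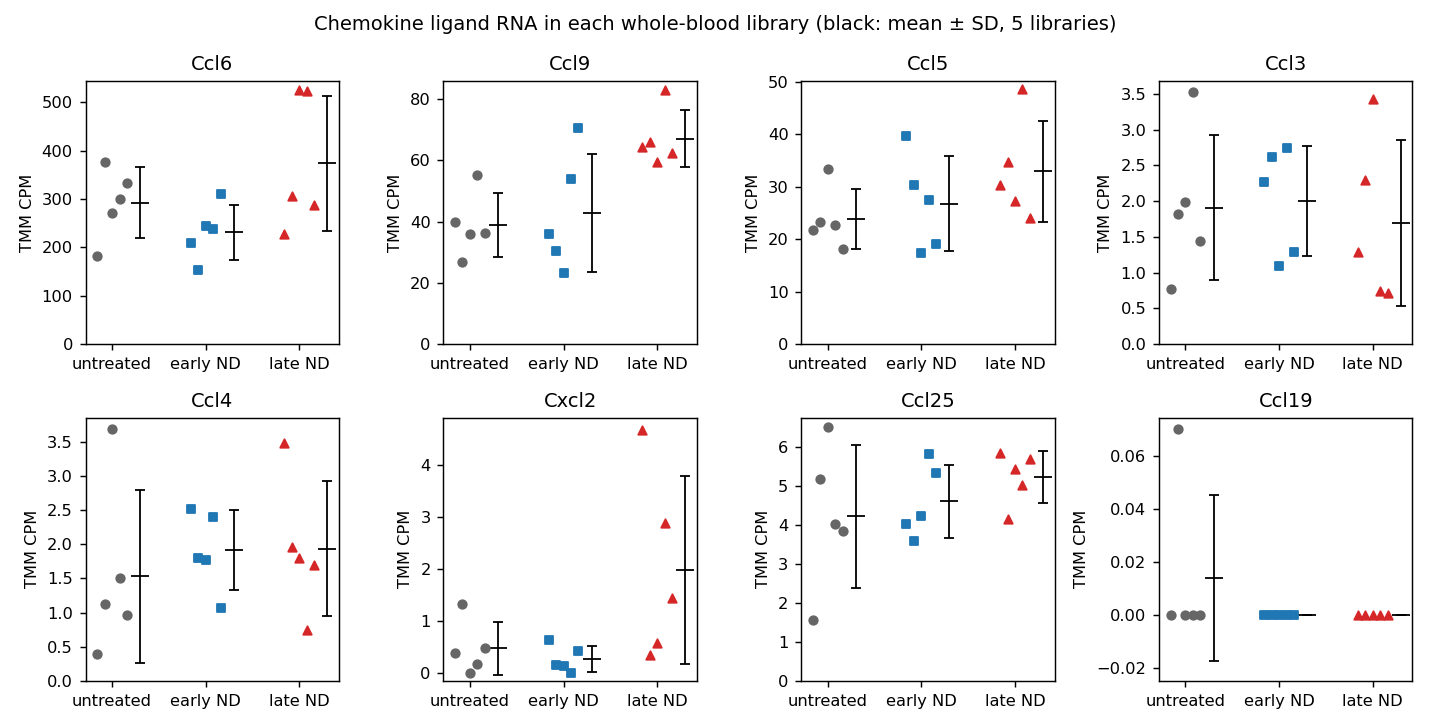
TMM-scaled CPM of each chemokine ligand in every library (circles untreated, squares early ND, triangles late ND; black bars, mean ± SD of 5 libraries; linear axes of different height). All 5 late ND libraries lie above all untreated libraries for Ccl9 (59.4 to 82.9 against 26.7 to 55.3 CPM), and Ccl19 has a count in a single library.

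Ccl9 (also known as MIP-1γ) attracts myeloid cells through CCR1. It reached 40.0, 26.7, 35.95, 55.3 and 36.2 CPM in untreated libraries 1 to 5, or 103, 381, 127, 329 and 226 counts. In early ND it was 35.8, 30.6, 23.4, 53.9 and 70.5 CPM, and in late ND 64.5, 66.1, 59.4, 82.9 and 62.4 CPM. Every late ND library was above every untreated library, whereas early 5 lay above 4 of the 5 late ND libraries. The coefficient of variation was 13.7% in late ND, against 26.9% in untreated and 44.7% in early ND blood.

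Ccl9 rose in late ND over untreated blood, from 38.8 ± 10.4 to 67.0 ± 9.20 CPM (SD, n = 5 each), a log2 fold change of 0.75 (SE 0.18; 95% CI 0.37 to 1.13; edgeR quasi-likelihood test, Benjamini-Hochberg adjusted p = 0.0423). It was the only one of the 6 ligands with enough counts for this fit that was called, while 0.989% of the 13547 genes tested were called higher and 2.01% lower. It was also the only one of the 6 whose groups did not overlap, as 3.57% of all tested genes were separated upward, and the only one with an unadjusted p under 0.05, against 8.69% of tested genes. The call was near the threshold. In a leave-one-out series the log2 fold change stayed between 0.62 and 0.92, but the adjusted p ranged from 0.0384 to 0.114 and remained under 0.05 only without untreated 4. It was likewise lost in 1 fit over all 15 libraries (0.75, edgeR adjusted p = 0.145) and without untreated 2, late 2 and late 3 (0.68, edgeR adjusted p = 0.141), where no gene of the transcriptome was called. The call was kept with the DESeq2 Wald test (0.73, adjusted p = 0.00556). In edgeR it was also kept with no filter on low counts (adjusted p = 0.0106). With DESeq2 size factors and with TMM without hemoglobin and 18S genes, the edgeR adjusted p was 0.0484 and 0.0425.

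The rise in Ccl9 was accompanied by higher monocyte transcripts. The 7 monocyte markers, among them Csf1r, F13a1, Ms4a6c, Chil3, Adgre4 and Ly6c2 and none of them at 0, summed to 574 to 1094 CPM in untreated, 592 to 1591 in early ND and 1558 to 1885 in late ND blood. All 7 had a log2 fold change above 0 in late ND over untreated blood, and Csf1r and Chil3 were among those called higher (log2 fold changes of 0.73 and 1.43, edgeR adjusted p = 0.0322 and 0.0261). Per 1000 CPM of these markers, Ccl9 was 36.8 to 62.6 CPM in untreated, 19.9 to 64.1 in early ND and 33.1 to 48.0 in late ND libraries, so the 3 groups overlapped on that scale. Early 5, the early ND library with the highest Ccl9, also had the highest monocyte sum of its group. The summed dendritic cell markers were also higher in that comparison. The 6 markers summed to 11.8 to 21.4 CPM in untreated, 9.61 to 25.7 in early ND and 27.5 to 34.6 in late ND libraries. Of the 5 tested, Flt3, Cd209a and Clec10a were called higher in late ND over untreated blood, against 0.989% of all genes tested. The remaining markers were not called. On average in untreated and late ND libraries, Clec9a was at 3.39 and 3.91 CPM, Siglech at 1.46 and 2.08 CPM and Zbtb46 at 0.690 and 0.955 CPM. In early ND, Zbtb46 averaged 1.39 CPM. The part of monocyte or dendritic cell number in the Ccl9 result was not tested.

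Ccl6 (also known as C10) is a CCR1 ligand of neutrophils and macrophages. Its levels were 183, 376, 271, 301 and 334 CPM in untreated libraries 1 to 5, and 209, 154, 244, 239 and 311 CPM in early ND. In late ND they were 229, 306, 526, 523 and 288 CPM. Late 3 and late 4 stood above all other libraries, and the remaining 3 late ND libraries lay within the range of the untreated ones. Late ND over early ND, Ccl6 differed by a log2 fold change of 0.66 (SE 0.26; 95% CI 0.09 to 1.23), with an unadjusted p of 0.0267 and an edgeR adjusted p of 0.149.

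Ccl6 was read beside the neutrophil markers, since neutrophils are a major source of its transcript in mouse blood. The 8 markers (S100a8, S100a9, Retnlg, Csf3r, Ly6g, Camp, Ltf and Ngp), none at 0, summed to 3986 to 10471 CPM in untreated, 2097 to 6481 in early ND and 5318 to 13192 in late ND blood. Late 4 had the highest neutrophil sum of all libraries and early 2 the lowest, and early 2 also had the lowest Ccl6. Between late and early ND, 6 of the 8 had a log2 fold change above 0 and none was called. Their median log2 fold change was 0.96, and that of all genes tested 0.014. At an unadjusted p under 0.05 by edgeR, 5 of the 8 were higher, against 14.4% of all genes tested. Per 1000 CPM of neutrophil markers, Ccl6 was 26.2 to 68.0 CPM in untreated, 37.7 to 89.5 in early ND and 25.3 to 57.6 in late ND libraries. The part of neutrophil number in the Ccl6 values was not tested.

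**Figure D2:**
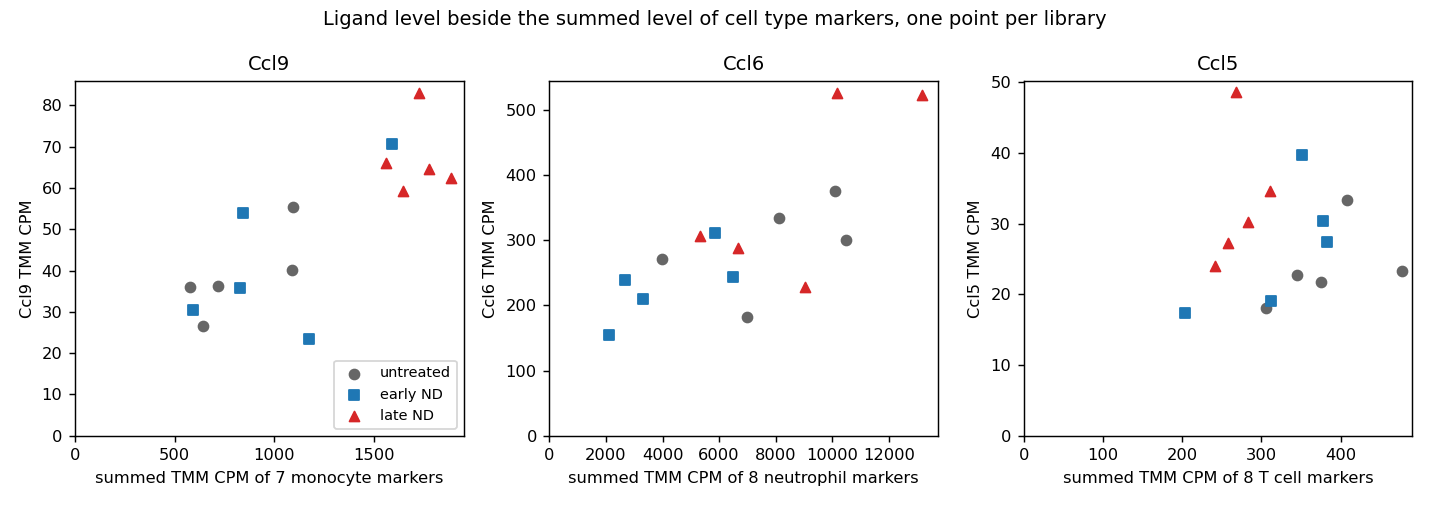
Level of Ccl9, Ccl6 and Ccl5 (vertical axes, TMM CPM) against the summed TMM CPM of monocyte, neutrophil and T cell markers in the same library; each point is 1 of 15 libraries. The 5 late ND libraries have monocyte sums of 1558 to 1885 CPM with Ccl9 at 59.4 to 82.9 CPM, and early 5 lies beside them at 1591 and 70.5 CPM.

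Ccl5 (RANTES), which is stored by memory CD8 T cells and NK cells and binds CCR1 and CCR3 among other receptors, was 21.8, 23.2, 33.4, 22.7 and 18.1 CPM in untreated libraries. It was 39.7, 30.4, 17.3, 27.5 and 19.0 CPM in early ND, and 30.3, 34.7, 27.2, 48.6 and 24.0 CPM in late ND. Late 4 was the highest library, and all 3 groups overlapped. The log2 fold change of late ND over untreated was 0.43 (SE 0.20; 95% CI -0.0033 to 0.87; edgeR adjusted p = 0.30), and that of late over early ND 0.27 (SE 0.24; edgeR adjusted p = 0.540), or 0.048 without late 4.

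T cell markers had lower values in late ND than in untreated blood. The 8 markers (Cd3d, Cd3e, Cd3g, Trac, Trbc2, Cd4, Cd8a and Lck), none at 0, summed to 305 to 477 CPM in untreated, 204 to 383 in early ND and 241 to 311 in late ND blood, and all 8 had a log2 fold change below 0 in late ND over untreated blood. Cd3g and Trbc2, a subunit of the CD3 complex and a T cell receptor constant region, were called lower (log2 fold changes of -0.63 and -0.74, edgeR adjusted p = 0.0274 and 0.0242). Per 1000 CPM of T cell markers, Ccl5 was 48.7 to 81.9 CPM in untreated, 60.9 to 113 in early ND and 99.4 to 181 in late ND libraries, so that late ND and untreated libraries were separate on this scale. Per 1000 CPM of 8 NK and cytotoxic markers (Gzma, Gzmb, Prf1, Nkg7, Klrd1, Klrb1c, Ncr1 and Klre1), Ccl5 was 138 to 201, 149 to 206 and 193 to 410 CPM in the same order, and the groups overlapped. These ratios were formed after the values were seen and carry no test.

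Ccl3 (MIP-1α) and Ccl4 (MIP-1β) are neighbouring genes that encode inflammatory chemokines of activated T cells, NK cells and macrophages. Ccl3 was 0.777, 1.82, 1.98, 3.53 and 1.44 CPM in untreated libraries, or 2 to 26 counts, 2.27, 2.61, 1.09, 2.75 and 1.28 CPM in early ND, and 1.28, 2.29, 3.42, 0.740 and 0.719 CPM in late ND. Ccl4 was 0.388, 1.12, 3.68, 1.51 and 0.961 CPM in untreated, 2.52, 1.80, 1.78, 2.40 and 1.07 CPM in early ND, and 3.48, 1.95, 1.80, 0.740 and 1.7 CPM in late ND libraries. Each gene spanned nearly its full range within a single group, and no group was separate from another. Late ND over untreated, the log2 fold changes were -0.22 (SE 0.49) for Ccl3 and 0.33 (SE 0.49) for Ccl4, with edgeR adjusted p of 0.885 and 0.803. Late over early ND they were -0.19 (95% CI -1.21 to 0.84) and -0.024 (95% CI -0.85 to 0.80), and scaling to library totals turned both to 0.69 and 0.81. Without late 2 and late 3, which are poor in 18S, Ccl3 in late over early ND was -1.16 (SE 0.43; unadjusted p = 0.0220; edgeR adjusted p = 0.144), and without late 3 alone it was -0.68. With 45 to 167 counts of either gene in a group, these intervals hold counting error as well as the spread between libraries. The ratio of Ccl4 to Ccl3 counts ran from 0.429 to 1.86 in untreated, 0.688 to 1.63 in early ND and 0.526 to 2.71 in late ND blood. On the opposite strand, 35.6% of the exon bases of Ccl3 overlap the gene Gm53692, so that without strand information part of the Ccl3 counts cannot be assigned.

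Cxcl2 (MIP-2), a CXCR2 ligand that recruits neutrophils, was sparse and uneven. Untreated libraries held 1, 19, 0, 1 and 3 counts, early ND libraries 5, 1, 1, 0 and 2, and late ND libraries 51, 8, 13, 39 and 22. Scaled to depth, these were 0.388, 1.33, 0, 0.168 and 0.480 CPM in untreated, 0.630, 0.163, 0.137, 0 and 0.427 CPM in early ND, and 4.67, 0.340, 0.570, 2.89 and 1.44 CPM in late ND blood. Late 1, late 4 and late 5 were above all other libraries, whereas late 2 and late 3 lay within the range of the early ND group. The libraries without a count, untreated 3 and early 4, allow up to 0.849 and 1.03 CPM (3 counts).

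Cxcl2 did not pass the filter on low counts and was compared on log2 CPM (prior count 2) instead. Late over early ND, the difference was 1.92 (two-sided exact permutation test over 10 libraries, unadjusted p = 0.0397), and in late ND over untreated it was 1.56 (exact permutation p = 0.0794). Leaving out single libraries moved the late over early ND difference between 1.52 and 2.31 and its exact permutation p between 0.0159 and 0.0714. It exceeded 0.05 without early 2, early 3, early 4, late 1, late 4 or late 5. Fitted with no filter on low counts, Cxcl2 had a log2 fold change of 2.65 (SE 0.74) in late over early ND, with an edgeR adjusted p of 0.0414, and of 1.63 (edgeR adjusted p = 0.356) in late ND over untreated. Without the libraries poor in 18S the difference in log2 CPM was 2.79 (exact permutation p = 0.0179) in late over early ND and 2.80 (exact permutation p = 0.0286) in late ND over untreated. These are the smallest p-values that the exact test can give with so few libraries. The libraries left out were also the 2 late ND libraries with the lowest Cxcl2 (0.340 and 0.570 CPM) and the untreated library with the highest (1.33 CPM). The separation therefore depends on which libraries were left out. With those libraries left out, Cxcl2 passed the filter through its late ND counts, and edgeR gave adjusted p of 0.0509 and 0.121. Neutrophil marker sums were 3986 to 10471 CPM in untreated, 2097 to 6481 CPM in early ND and 5318 to 13192 CPM in late ND libraries. Over the 15 libraries, Cxcl2 and the neutrophil sum had a Pearson r of 0.60 on log2 values (Spearman rho = 0.58). With group means subtracted, r was 0.49. Late 4, with the highest sum of 13192 CPM, had Cxcl2 at 2.89 CPM. Late 1 and untreated 2, with 9048 and 10100.5 CPM, had it at 4.67 and 1.33 CPM. Untreated 4 and late 3, with 10471 and 10152 CPM, had it at 0.168 and 0.570 CPM. Per 1000 CPM of these markers, Cxcl2 was 0 to 0.132 CPM in untreated, 0 to 0.191 in early ND and 0.0562 to 0.516 in late ND libraries, so the groups overlapped, and the part of neutrophil number was not tested. Cxcl3, a CXCR2 ligand encoded in the same cluster and named after its values were seen, was also highest in late 1, at 3.39 CPM against at most 0.915 CPM in the other 14 libraries.

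Ccl25, the CCR9 ligand of thymus and small intestine, was 1.55, 5.18, 6.51, 4.03 and 3.84 CPM in untreated, 4.04, 3.60, 4.23, 5.84 and 5.34 CPM in early ND and 5.86, 4.16, 5.44, 5.03 and 5.69 CPM in late ND libraries. The lowest library, untreated 1, rested on 4 counts, and the groups overlapped. Late ND over untreated, the log2 fold change was 0.23 (95% CI -0.32 to 0.78; edgeR adjusted p = 0.730), and late over early ND it was 0.18 (95% CI -0.23 to 0.59; edgeR adjusted p = 0.626). Of the thymic and gut epithelial markers, Foxn1 and Psmb11, which define thymic epithelium, had 1 count each over all 15 libraries, and the list of 6 markers summed to 5.44 to 136 CPM. The annotated exons of Ccl25 share 604 bases, or 4.82%, with Elavl1 on the opposite strand, and the gene's models extend far beyond its canonical transcript, so these counts cannot be read with certainty as Ccl25 messenger RNA.

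Ccl19, the CCR7 ligand of lymph node stroma, had 1 count in untreated 2 and none in the other 14 libraries. A count of 0 allows up to 0.480 to 1.17 CPM in the 4 untreated libraries at 0, up to 0.378 to 1.03 CPM in the early ND and up to 0.127 to 0.275 CPM in the late ND libraries (3 counts per library, counting error only). The transcript has 7 near-identical copies elsewhere in the genome, at 97.7% to 98.6% identity, and read pairs that align to several places were not counted. A count of 0 therefore does not measure the absence of the RNA, and no level in blood can be given for Ccl19.

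**Figure D3:**
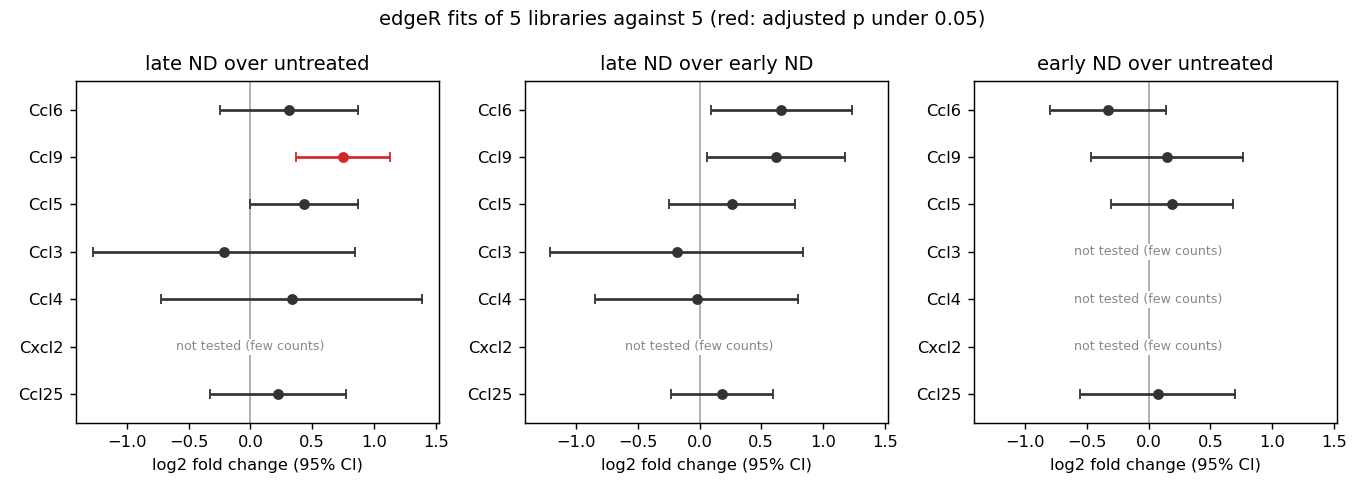
Log2 fold changes with 95% confidence intervals of the ligands in 3 pairwise edgeR fits of 5 against 5 libraries; the red point marks an adjusted p under 0.05. Ccl9 in late ND over untreated is the only one marked, Ccl6 and Ccl9 have intervals above 0 in late over early ND, and ligands with too few counts are written as not tested.

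Late over early ND, none of the 6 ligands tested was called at an adjusted p under 0.05, against 2.50% of 13315 genes called higher and 2.48% called lower. At an unadjusted p under 0.05, 2 of the 6 were higher, Ccl6 and Ccl9, against 14.4% of all genes tested. Without late 2 and late 3 neither was, with log2 fold changes of 0.54 for Ccl6 (unadjusted p = 0.0923) and 0.67 for Ccl9 (unadjusted p = 0.0577) by edgeR. Ccl9 averaged 42.8 ± 19.2 CPM in early ND and 67.0 ± 9.20 CPM in late ND libraries (log2 fold change 0.62, SE 0.26; 95% CI 0.06 to 1.18; unadjusted p = 0.0317; edgeR adjusted p = 0.164). The edgeR adjusted p for Ccl9 fell to 0.0422 without early 5, the early ND library with 70.5 CPM, where the log2 fold change was 0.90. None of the 8 ligands separated the late from the early ND group, against 4.84% of tested genes that were separated upward and 2.20% downward. The median log2 fold change of the 6 ligands was 0.22, and that of all genes tested 0.014. Cell markers moved in the same comparison: 2 of 7 monocyte and 3 of 5 tested dendritic cell markers were called higher by edgeR. Of the 8 neutrophil markers, 5 were higher at an unadjusted p under 0.05. The part of cell number in the Ccl6 and Ccl9 values was not tested.

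Between early ND and untreated blood, none of the 4 ligands tested (Ccl5, Ccl6, Ccl9 and Ccl25) was called by edgeR, and neither was any of the 12151 genes tested, so that 0% were called in either direction. At an unadjusted p under 0.05, 2.11% of genes were higher and none of the 4 ligands was, none of the 8 ligands was separated upward while 0.272% of genes were, and DESeq2 also called no gene. Ccl6 was 231 ± 57.0 CPM in early ND and 293 ± 72.8 CPM in untreated blood (log2 fold change -0.33, 95% CI -0.80 to 0.14). Ccl9 differed by 0.15 (SE 0.28), Ccl5 by 0.19 (SE 0.23) and Ccl25 by 0.07 (SE 0.29) on the log2 scale. For Ccl3, Ccl4 and Cxcl2, which had too few counts for this fit, the differences in log2 CPM were 0.11, 0.51 and -0.36, with two-sided exact permutation p of 0.786, 0.302 and 0.548. The 3 pairwise comparisons share libraries, so their fold changes are not independent of each other.

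The receptors of these ligands were read as a list of 11 genes, of which 9 were tested in late over early ND and none was called by edgeR, with 4 higher and 1 lower at an unadjusted p under 0.05, against 14.4% and 9.33% of all genes tested. CCR1, the receptor of CCL3, CCL5, CCL6 and CCL9, was encoded at 102 ± 49.2 CPM in early and 220 ± 71.5 CPM in late ND (log2 fold change of Ccr1 1.07, SE 0.32; edgeR adjusted p = 0.0664). Cxcr2, through which CXCL2 acts on neutrophils, was at 280 ± 146 and 604 ± 208 CPM (1.07, SE 0.34; edgeR adjusted p = 0.0841). The lymphoid receptors had values in the other direction, with Ccr7 at 63.8 ± 12.2 and 48.0 ± 14.5 CPM (-0.44, SE 0.20; edgeR adjusted p = 0.208) and Ccr9 at 8.26 ± 1.77 and 6.65 ± 1.67 CPM (-0.31, SE 0.20; edgeR adjusted p = 0.397). Over the 9 tested receptors the median log2 fold change was 0.19. Against untreated blood none of the 9 was called in late ND, and none of 8 in early ND. Among cell markers, 2 of 7 monocyte genes were called higher by edgeR in late over early ND, against 2.50% of all genes. In that comparison 5 of 8 neutrophil markers were higher at an unadjusted p under 0.05. All 8 T cell markers had a log2 fold change below 0 there. The part of cell number in the receptor values was not tested.

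Of the 12 other chemokine receptors, 9 were tested and Ccr2 was called higher in late ND over untreated blood. Ccr2 encodes the receptor by which classical monocytes leave the bone marrow, and its level was 180 ± 39.5 CPM in untreated and 402 ± 78.3 CPM in late ND libraries (log2 fold change 1.11, SE 0.18; edgeR adjusted p = 0.0242), with no overlap between the groups, where 0.989% of all genes were called higher and 3.57% separated upward. Cxcr4, the CXCL12 receptor, was also separated (79.4 and 104 CPM on average) and was not called (edgeR adjusted p = 0.0649). Late over early ND the log2 fold change of Ccr2 was 1.04 (edgeR adjusted p = 0.0565). No other receptor of this list was called in any of the 3 comparisons.

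Among all 41 chemokine ligand genes considered, the platelet ligands Ppbp and Pf4 were the most abundant, at means of 886 and 501 CPM over the 15 libraries. Both encode alpha-granule chemokines of platelets. Together they made up 73.2% to 85.5% of the ligand counts in untreated, 77.2% to 83.8% in early ND and 60.8% to 76.0% in late ND libraries. Ccl6 made up 10.2% to 21.97%, 10.7% to 17.98% and 16.3% to 30.6%, and Ccl9 1.17% to 2.82%, 1.72% to 2.82% and 3.20% to 4.84%, in the same order. The Ccl9 share of every late ND library was thus above that of every other library. Neither platelet ligand was called: late ND over untreated, the log2 fold change was -0.57 (SE 0.19; edgeR adjusted p = 0.146) for Ppbp and -0.46 (SE 0.19; edgeR adjusted p = 0.233) for Pf4. A share rises when other transcripts fall, and these shares carry no test.

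**Figure D4:**
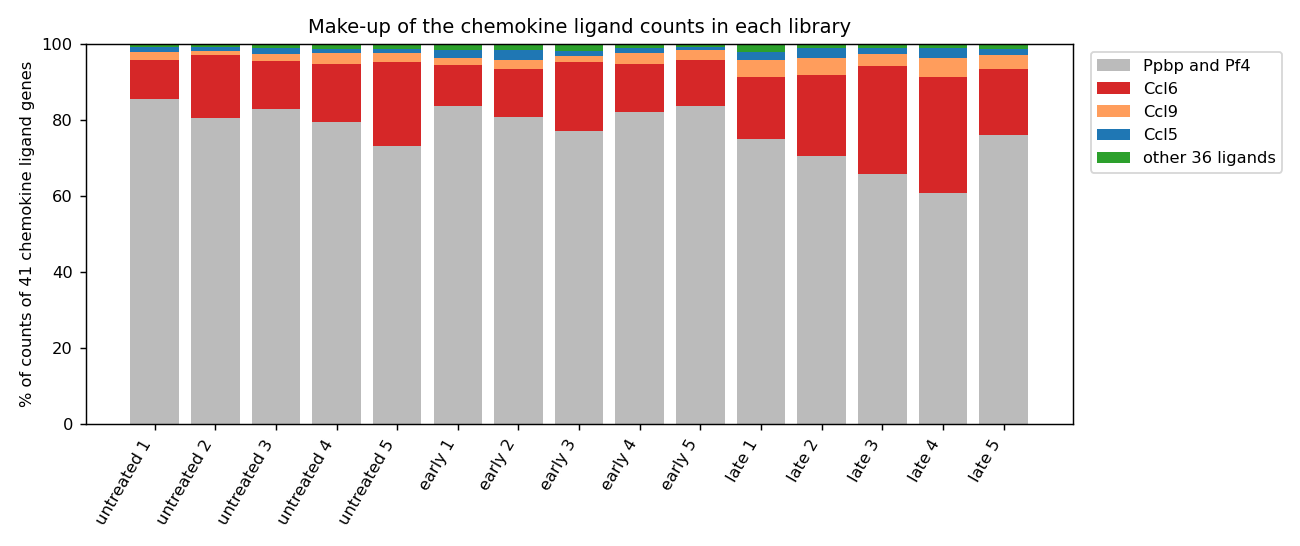
Stacked bars giving the make-up of the counts of 41 chemokine ligand genes in each library, in percent. Ppbp and Pf4 fill 60.8% to 85.5% of every bar, and Ccl6 is the next largest part, reaching 30.6% in late 4.

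Of the 33 ligand genes other than the 8 described, 6 had enough counts to be tested in late over early ND and none was called. At an unadjusted p under 0.05, 1 of them was lower, against 9.33% of all genes tested. The ligands Cxcl10 and Ccl22, which had few counts, are named here after their values were seen. Cxcl10, a CXCR3 ligand induced by interferon, had 10, 14, 12, 4 and 11 counts in early ND (1.26 to 2.35 CPM) and 0, 2, 1, 6 and 1 counts in untreated libraries (0 to 1.008 CPM). All 5 early ND libraries were above all untreated ones, a difference in log2 CPM of 2.16. In that comparison 0.272% of all genes tested were separated upward. In late ND Cxcl10 was at 0.526 to 1.28 CPM (log2 fold change over early ND -1.27). As a difference in log2 CPM this was -1.04, and it was -0.32 on library totals and -0.83 without late 2 and late 3. Ccl22, a CCR4 ligand of dendritic cells, had 26, 8, 3, 2 and 9 counts in early and 1, 0, 0, 2 and 5 counts in late ND. Its late ND libraries were all below its early ND libraries, a difference in log2 CPM of -2.28. Of all genes tested there, 2.20% were separated downward. Counts this low leave single reads with a large weight. Since both genes were picked for this separation, their differences are a description, and no p-value is given for them.

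Of 14 genes often induced together with inflammatory chemokines, Zfp36, which encodes an mRNA-destabilising protein that limits cytokine transcripts, was called higher in late over early ND. It was 85.5 ± 20.8 CPM in early and 163 ± 29.6 CPM in late ND (log2 fold change 0.90, SE 0.18; edgeR adjusted p = 0.0210), with no overlap, where 2.50% of all genes were called higher and 4.84% separated upward. Without late 2 and late 3 it was 0.83 (edgeR adjusted p = 0.0592). Il1b was at 181 ± 76.2 and 311 ± 127 CPM, Tnf at 2.34 ± 1.07 and 3.47 ± 0.487 CPM, and neither was called (edgeR adjusted p of 0.190 and 0.271). Of the 14 genes, 12 had a log2 fold change above 0. At an unadjusted p under 0.05, 5 were higher and 2 lower, against 14.4% and 9.33% of all genes tested. The genes with lower values were Sod2, which encodes mitochondrial superoxide dismutase, at 28.0 and 18.2 CPM, and Tnfaip3, an NF-κB inhibitor, at 19.5 and 15.6 CPM on average in early and late ND. The groups of Rela, which encodes an NF-κB subunit, did not overlap either (37.2 and 47.4 CPM on average; edgeR adjusted p = 0.0729). Against untreated blood, 13 of the genes were tested in each comparison and none was called, while Zfp36, Icam1 and Rela did not overlap in late ND over untreated, where 3.57% of all genes were separated upward (edgeR adjusted p of 0.0770 to 0.340).

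The transcripts whose levels followed each ligand most closely were found among the 9454 genes that averaged 50 counts or more per library, by Pearson correlation of log2 CPM over 15 libraries. These libraries share differences in depth, hemoglobin and cell make-up, and the coefficients are given as a description. Ccl9 was closest to Clec4a1 (r = 0.95, Spearman rho = 0.90), Slc49a3 (r = 0.94, rho = 0.91) and Tifab (r = 0.93, rho = 0.88). With group means subtracted, r for these 3 stayed at 0.91. Ccl6 was closest to Clec7a, which encodes the β-glucan receptor Dectin-1 of myeloid cells (r = 0.94, rho = 0.92), Slc66a2 (r = 0.93, rho = 0.88) and Il1b (r = 0.93, rho = 0.88). Ccl5 was closest to Tnrc6b (r = 0.86, rho = 0.86), Camk2b (r = 0.82, rho = 0.79) and Elmo1 (r = 0.79, rho = 0.83). The coefficient between Ccl6 and Ccl9 themselves was r = 0.43 (rho = 0.39), falling to r = 0.20 with group means subtracted.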

How the data were processed

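RNA of cheek-bleed whole blood, with clots removed, was isolated with TRIzol and RNeasy columns and sequenced as paired reads. Per the labels and the study's methods, the authors aligned reads with STAR 2.7.9 to GRCm39, sorted them with SAMtools 1.7 and counted them per Ensembl gene with HTSeq 0.13.5. The deposited values are raw counts. The strand setting and annotation release are not given in the sources used here. HTSeq summary lines were left out of library sizes (pairs in no gene were 50.6% to 55.1% of uniquely aligned pairs), and 54749 of 55416 gene IDs were matched to GENCODE vM39 symbols.

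Libraries were grouped by their labels (5 untreated, 5 early ND, 5 late ND). Each pair of groups was fitted in its own edgeR 4.0.16 (R 4.3.3) quasi-likelihood model after filterByExpr, with TMM scaling, and p-values were Benjamini-Hochberg adjusted over all genes tested (threshold 0.05). Genes that failed the filter were compared on log2 CPM (prior count 2) by a two-sided exact permutation test over libraries, unadjusted. The labels number the libraries but do not state that each is a separate animal, so p-values measure the spread between these samples. Alternatives were no filter, library totals, DESeq2 (1.42.0) size factors and Wald test, TMM without hemoglobin and 18S genes, 1 fit over 15 libraries, the replicate block, a prior count of 0.5, libraries rich in 18S, and each library left out. Near copies were sought with BLAST+ 2.17.0. Scripts were tested on simulated data. Depth intervals cover counting error only.

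The 8 ligands and all gene lists were chosen with earlier results of these data known. The named genes were these ligands, their receptors, listed genes that were called, the most abundant other ligands, and the 3 genes most like each ligand with a mean of at least 50 counts. Some listed genes are not reported here.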

Additional observations from a re-analysis of the deposited data

Results flagged for a closer look

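Ccl9 in late 4, at 82.9 CPM, stood far from the other 4 late ND libraries, the next of which was at 66.1 CPM. The gap was 0.713 of the group's range, just over Dixon's 95% critical value of 0.71 for 5 samples. Chance exceeds that value in about 1 in 20 groups. Every ligand was screened in this way in each group where it had at least 10 counts, so a flag can arise by chance alone. Late 4 also had the highest neutrophil marker sum (13192 CPM) and the highest Ccl5 (48.6 CPM) of the 15 libraries. Without it, Ccl9 in late ND over untreated had a log2 fold change of 0.64 (edgeR adjusted p = 0.110).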

How the results depend on the processing

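Of the alternative values of the ligands' fold changes, 255 kept their direction and their side of the threshold, 12 reversed, 9 gained and 11 lost a call. Late over early ND, where 0 ligands and 663 of all genes were called by edgeR, no filter on low counts gave 1 ligand and 1282 genes, library totals 4 and 9060, DESeq2 0 and 1439, libraries rich in 18S 4 genes, and leaving out single libraries 0 to 1 ligand and 145 to 1610 genes. Late ND over untreated, where 1 ligand and 406 genes were called, library totals gave 5 and 7574, DESeq2 808 genes, 1 fit over 15 libraries 0 ligands, libraries rich in 18S 0 and 0, and leaving out single libraries 0 to 1 ligand and 0 to 593 genes. Library totals gave 3 called genes in early ND over untreated, where 0 were called. The cause was not tested, except that leaving out libraries leaves fewer samples.

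Reversed log2 fold changes were small or followed library totals. Late over early ND, Ccl4 was 0.055 with no filter, 0.81 on library totals and -0.35 to 0.14 without single libraries, and Ccl3 was 0.69 on library totals. Late ND over untreated, Ccl3 was 0.69 on library totals and -0.66 to 0.12 without single libraries. In early ND over untreated, leaving out single libraries gave -0.083 to 0.23 for Ccl25, -0.0057 to 0.33 for Ccl5, -0.12 to 0.31 for Ccl9, -0.13 to 0.35 for Ccl3, 0.19 to 0.87 for Ccl4 (exact permutation p = 0.0476 without untreated 3) and -0.72 to 0.012 for Cxcl2. The Cxcl2 difference was 1.52 to 2.31 in late over early ND and 1.16 to 1.95 in late ND over untreated without single libraries, and 2.04 on library totals in the latter (exact permutation p = 0.0317).

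With the replicate block, Ccl9 in late ND over untreated had a log2 fold change of 0.78 (edgeR adjusted p = 0.00671), and 607 genes were called. Same-numbered libraries correlated on average at 0.24 in that comparison, and differently numbered ones at -0.058. In late over early ND (673 genes called) these averages were -0.01 and 0.0032. The numbers in the labels are not said to pair the mice and were not taken to do so. Alternatives for Cxcl10 and Ccl22 were chosen after seeing the data: on library totals Cxcl10 in late over early ND moved from -1.04 to -0.32 in log2 CPM. So were the fits in libraries rich in 18S of the named listed genes. In late over early ND, Zfp36 had a log2 fold change of 0.83 there, against 0.90 in all libraries. In late ND over untreated, Ccr2 had 1.13 (1.11 in all libraries), Csf1r 0.85 (0.73) and Chil3 1.28 (1.43). Cd3g had -0.66 (-0.63) and Trbc2 -0.77 (-0.74). None of these genes was called in those fits, with edgeR adjusted p of 0.0592 to 0.166. Libraries held 2 to 78 counts of Ccl3, 1 to 46 of Ccl4 and 0 to 51 of Cxcl2.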
